A study of Mus musculus with 28 samples.

Results

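Collagen chain genes encode the alpha chains that assemble by threes into collagen triple helices. They were taken as all genes whose symbol is Col, a number, the letter a and a number, and 38 of the 17295 genes of the table matched. They were followed through 28 mouse libraries of messenger RNA, 2 in each of 14 groups. Of the groups, 10 were fibroblasts reprogrammed into neural stem cells by added transcription factors (miNSC in the labels), 3 were fibroblasts and 1 was neural stem cells (NSC) given no factor. Cocktails are named by letters. F means eSox17FNV, the engineered Sox17, and B, K and M are given in the labels by those letters alone. 4F is B/K/M/eSox17FNV.

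Embryonic fibroblasts of the ICR line gave a KF and a BKF group, and embryonic fibroblasts of the Sox2-GFP line, which carries a Sox2 reporter, gave KF, BKF and KMF groups. From Sox2-GFP mice aged 1.0 year came tail-tip lines with BKF, with KMF and with 4F, the last sampled at passages 8 and 18. A further 4F group came from ear fibroblasts at the same age. The fibroblast groups, all Sox2-GFP, were tail-tip cells at 1.0 year, tail-tip cells at 2.5 years and skin cells at 2.5 years. The NSC, also Sox2-GFP and 2.5 years old, were sampled at passages 2 and 5. Starting embryonic, ear and ICR fibroblasts were not analysed here. Per the labels' protocol, the factors were carried by doxycycline-inducible lentiviruses and doxycycline had been withdrawn before colonies were picked. The miNSC were grown on Matrigel in serum-free medium with bFGF and EGF, and the fibroblast medium held serum, so cell type and medium cannot be told apart. Each miNSC group may come from 1 colony. Line and cocktail then cannot be told apart, and the p-values speak of library spread alone, which may be technical.

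In textbook terms, collagens fall into families by how their trimers assemble. Fibrillar chains such as those of types I, III, V and XI build the fibrils of connective tissue, and type IV chains build the sheet of basement membranes. Type VI forms beaded microfilaments around cells, fibril-associated collagens (FACIT) decorate fibrils, and multiplexins lie in basement membrane zones. Fibroblasts are the main source of fibrillar collagen, whereas the brain parenchyma holds little of it and keeps its basement membranes mostly around vessels and at its surface.

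The values are whole-number scores that the authors describe only as normalised expression. Whether they are scaled by transcript length is not given, so levels are compared between groups and not between genes. Sequencing depth is unknown, and library totals lay between 15563679 and 15571626. Each library's highest genes share a few fixed steps, such as 10 genes at 92914 and 6 at 42158, which compresses differences among the most abundant collagens of fibroblasts. The 9 fibroblast markers summed to 35859 to 56412 in fibroblasts and 1124 to 2892 in miNSC, and the 8 neural stem cell markers to 185 to 319 and 62016 to 141151. In bulk samples, fewer cells of a type and less RNA per cell cannot be told apart. Genes on long transcripts were higher in miNSC: the longest decile of tested genes had a median log2 difference of 0.61 against fibroblasts, and 11 of the 36 tested collagen genes were in it.

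Promoter sequence was taken from RefSeq (GRCm38.p6), where 31 of the 38 genes matched. Several collagen genes lie head to head, so that a pair of chains is read outwards from a common stretch. Among the chosen pairs of chains compared, Col4a1 and Col4a2 ran most closely together across the miNSC groups. The common stretch is shown for that pair and for Col4a4 and Col4a3. The first genes overlap by 22 bases at chr8:11312805-11312826, and the second are 71 bases apart at chr1:82586850-82586920, both shown on the plus strand. Capitals mark a GGGCGG box, the core of the motif bound by Sp factors, on either strand.
Col4a1 and Col4a2: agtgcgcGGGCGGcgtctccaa
Col4a4 and Col4a3: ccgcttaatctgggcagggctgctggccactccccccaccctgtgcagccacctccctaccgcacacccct

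Further genes, 4 in all, stand for 4 different patterns of expression below. Col3a1 was far lower in every miNSC line than in fibroblasts, least so in 1 line, and Col11a1 was retained. Col6a5 was high in skin fibroblasts, and Col4a6 differed between lines. For each of these 4 genes the 250 bases before its start are shown. They lie at chr1:45311288-45311537 (plus strand, Col3a1), chr3:114030290-114030539 (plus strand, Col11a1), chr9:105960644-105960893 (minus strand, Col6a5) and chrX:141474077-141474326 (minus strand, Col4a6), each read in the direction of its gene. Capitals mark 4 motifs or their reverse complements, namely the CCAAT box, the GGGCGG box, the TATAAA box and the Sox-type motif ACAATG.
Col3a1: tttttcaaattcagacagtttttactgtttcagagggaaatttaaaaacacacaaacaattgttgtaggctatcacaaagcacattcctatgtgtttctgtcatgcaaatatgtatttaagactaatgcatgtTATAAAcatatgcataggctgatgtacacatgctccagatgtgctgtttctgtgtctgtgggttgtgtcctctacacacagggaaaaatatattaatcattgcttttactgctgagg
Col11a1: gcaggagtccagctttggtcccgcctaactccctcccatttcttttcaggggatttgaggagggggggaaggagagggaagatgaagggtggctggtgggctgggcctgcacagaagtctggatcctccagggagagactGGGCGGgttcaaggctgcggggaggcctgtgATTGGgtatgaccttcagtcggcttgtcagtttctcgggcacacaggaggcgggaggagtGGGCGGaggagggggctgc
Col6a5: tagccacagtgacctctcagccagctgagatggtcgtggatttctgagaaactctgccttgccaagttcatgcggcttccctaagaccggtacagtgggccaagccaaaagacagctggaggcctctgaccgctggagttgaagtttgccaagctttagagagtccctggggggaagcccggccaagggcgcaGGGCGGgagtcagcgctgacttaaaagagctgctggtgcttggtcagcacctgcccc
Col4a6: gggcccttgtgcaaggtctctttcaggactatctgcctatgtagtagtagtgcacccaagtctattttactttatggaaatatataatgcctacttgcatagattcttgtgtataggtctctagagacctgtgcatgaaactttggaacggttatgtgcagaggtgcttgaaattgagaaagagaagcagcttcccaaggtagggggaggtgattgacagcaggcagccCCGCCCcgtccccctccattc

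In these windows Col11a1 held 2 GGGCGG boxes and 1 CCAAT box, Col6a5 and Col4a6 1 GGGCGG box each, and Col3a1 1 TATAAA box and none of the other motifs. Over the 31 matched collagen genes, GGGCGG or its reverse complement was present in 20 (64.5%), beside 32.9% of 27025 RefSeq promoters of the same length. CCAAT was present in 11 (35.5%, beside 34.5%), TATAAA in 3 (9.7%, beside 13%) and ACAATG in 1 (3.2%, beside 11%), that of Col28a1. Some collagen windows overlapped annotated exons of any gene, and those of Col4a1, Col4a2, Col6a4 and Col20a1 did so over all 250 bases. Such overlap was not counted for the other RefSeq promoters. Col1a1, Col5a2 and Col12a1 were among the collagen genes not matched. A match is a description of the sequence and not of a bound factor.

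Fibroblasts and miNSC differed in most of their collagen repertoire. Between 22 and 24 of the 38 genes had a group mean of at least 100 in each fibroblast group, against 7 in the ear 4F miNSC, up to 15 in the tail-tip 4F cells at passage 8, and 9 in NSC. At a group mean of at least 1000 there were 16 to 18 genes in fibroblasts and none to 6 in miNSC. In the test of the 10 miNSC groups against the 3 fibroblast groups (limma across 16275 genes, Benjamini-Hochberg adjusted p under 0.05), 24 of 36 tested collagen genes were lower in miNSC, 10 were higher and 2 did not pass. Over all tested genes 76.5% were called in either direction, 42.8% higher and 33.7% lower. The median log2 difference was -4.61 over the collagen genes and 0.10 over all tested genes. Of the sex-linked genes, Ddx3y was at 0 in both 2.5-year fibroblast groups, and Xist at 8894 in skin and 21805 in tail-tip cells. Every miNSC library had Ddx3y at 808 or more and Xist at 253 or less. Sex-linked expression is thus partly mixed with cell type in the test of miNSC against fibroblasts. A low mean over all libraries, under 10, kept Col6a4 and Col8a2 out of the test. Of those tested, 19 reached a mean of 10 in both kinds of cell, 10 in fibroblasts only and 7 in miNSC only, so the counts describe the genes and are no evidence of their own.

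**Figure D1:**
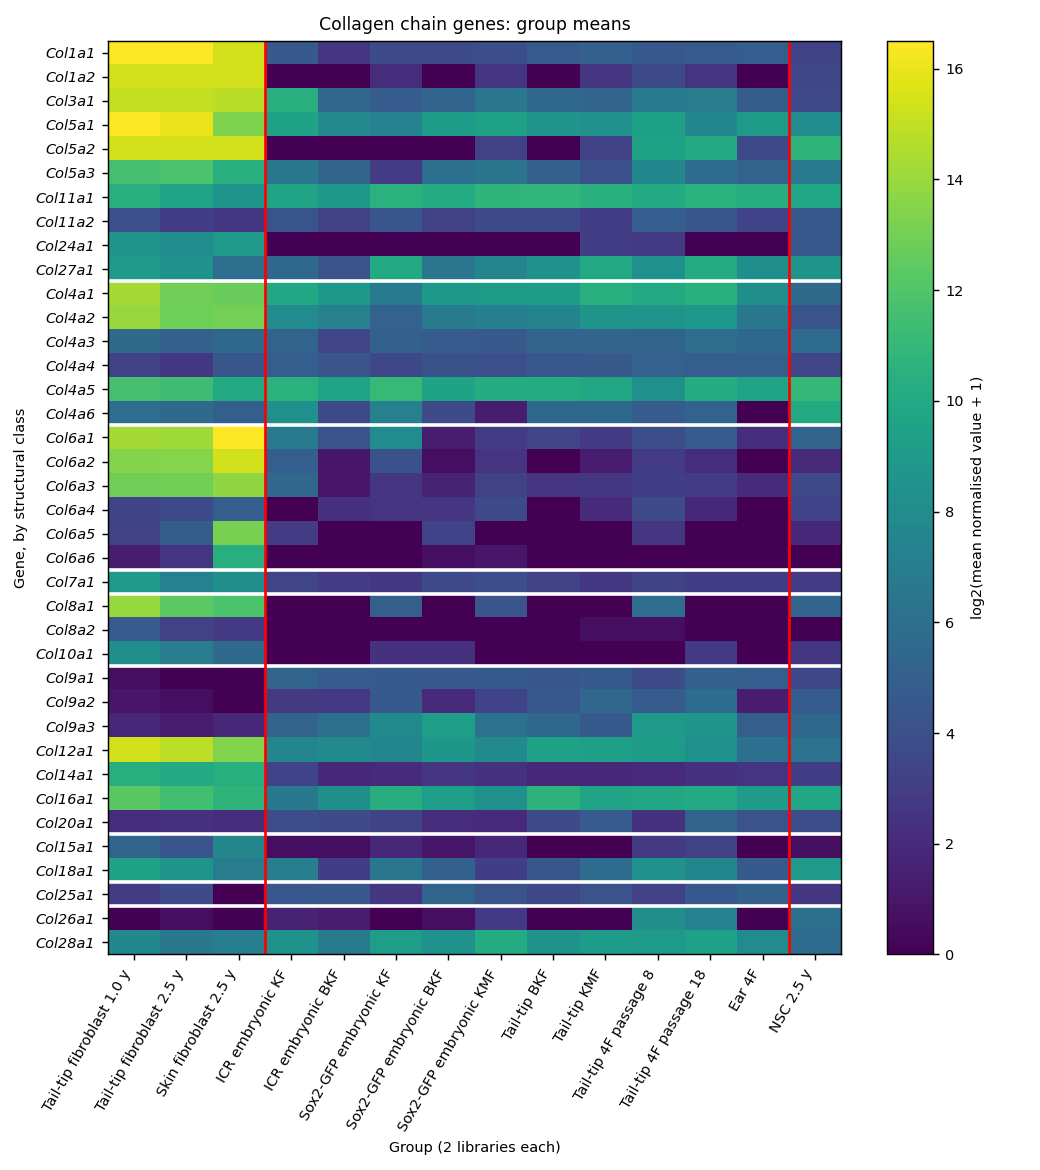
Group means of the 38 collagen chain genes, as log2 of the mean normalised value plus 1, with genes in rows grouped by structural class (white lines) and the 14 groups in columns, fibroblasts left of the first red line, miNSC between the lines and NSC on the right. The fibroblast columns are brightest for types I, III, V, VI and XII, and the type IX rows are dark in fibroblasts and lighter elsewhere.

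Among the 10 fibrillar genes, 7 were lower in miNSC, 2 were higher and Col27a1 did not pass. Col1a1, which encodes the alpha1 chain of type I collagen, stood at 92914 in all 4 tail-tip fibroblast libraries and at 42158 in both skin libraries, and ran from 4 through a median of 21.5 to 32 in the 20 miNSC libraries. The NSC libraries had 10 at passage 2 and 9 at passage 5. Every fibroblast library lay far above every other library, with a log2 difference of -11.86 ± 0.09 (SE) for miNSC against fibroblasts (adjusted p = 3.34e-22). Col1a2, its partner chain in the type I trimer, was at 42158 in all 6 fibroblast libraries, at 0 in 15 of 20 miNSC libraries and at most 24 in the rest. Its log2 difference was -14.47 with 1 added before the logarithm and -11.77 with 10 added, so the size depends on the value added, while the groups did not overlap. Col3a1, the type III chain found beside type I in skin and vessels, was at 32713 in the 4 tail-tip and 28060 in the 2 skin libraries. Its miNSC values ran from 18 through 51.5 to 1352, and the difference was -8.75 ± 0.44 (adjusted p = 9.69e-12). The high end was a single line: the ICR KF libraries had 1346 and 1352, and no other miNSC library exceeded 156.

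Type V chains regulate fibril diameter. Col5a1 had 92914 in 3 of the 4 tail-tip libraries, 42158 in the other 2.5-year one and 10338 in both skin libraries, against 151 to 786 in miNSC with a median of 450, a difference of -6.65 ± 0.11 (adjusted p = 5.06e-18). It was thus reduced but still present in every miNSC and NSC library. Col5a2 stood at 42162 in all fibroblast libraries and at 0 in 13 of 20 miNSC libraries. In the tail-tip 4F line it reached 1030 and 1110 at passage 18 and 706 and 768 at passage 8, and in NSC 2024 and 1450, whereas no other miNSC library exceeded 24. The tail-tip 4F line thus stood apart from the other miNSC in Col5a2 and lay nearest to NSC. Col5a3 fell from 1298 to 3858 in fibroblasts to 6 to 262 in miNSC. Col24a1, a minor fibrillar chain, was at 248 to 504 in fibroblasts and at 0 in 18 of 20 miNSC libraries, the other two having 12 and 14.

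Type XI chains, which nucleate thin fibrils in cartilage and elsewhere, behaved differently. Col11a1 had 1278 and 1304 in the 1.0-year tail-tip libraries, 824 and 802 in the 2.5-year ones and 389 and 377 in skin, and 446 through 1284 to 1951 in miNSC. These ranges overlapped, and the difference was 0.68 ± 0.05 (adjusted p = 5.02e-09). Against the 1.0-year tail-tip fibroblasts alone the difference of Col11a1 was -0.12 (adjusted p = 0.224), and with each group entered as its mean it was 0.69 (adjusted p = 0.18). Its transcript lies in the longest decile of genes, whose median was 0.61, and the part of length was not tested. Col11a2 was low throughout, at 3 to 17 in fibroblasts and 6 to 34 in miNSC, with a difference of 0.59 ± 0.21 (adjusted p = 0.0173). Without the skin fibroblasts, an alternative chosen after seeing the data, that of Col11a2 was 0.28 (adjusted p = 0.321). Without the first skin library it was 0.40 (adjusted p = 0.107), without the first 1.0-year tail-tip library 0.55 (adjusted p = 0.0521), and against 1.0-year tail-tip cells alone -0.24 (adjusted p = 0.554). Col27a1 spanned 48 to 502 in fibroblasts and 16 to 1318 in miNSC, with a difference of 0.09 ± 0.32 (adjusted p = 0.805).

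Of the 6 type IV genes, 4 were lower in miNSC than in fibroblasts, Col4a4 was higher and Col4a3 did not pass. Col4a1 and Col4a2 encode the chains of the common basement membrane trimer. Col4a1 had 20138 in both 1.0-year tail-tip libraries, 8418 and 7153 in the 2.5-year ones, 6859 and 6986 in skin, and 103 through 519 to 1548 in miNSC. Col4a2 had 15161 and 16127, 7994 and 6702, and 8418 in each skin library, in the same order of fibroblast groups, and 34 through 163 to 516 in miNSC. Neither gene's fibroblast values overlapped those of miNSC, with differences of -4.19 ± 0.21 (adjusted p = 7.9e-12) for Col4a1 and -5.85 ± 0.25 (adjusted p = 1.1e-12) for Col4a2. The lowest miNSC values of both came from the Sox2-GFP embryonic KF line.

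Across the 10 miNSC group means the 2 genes kept the same order almost throughout, with Pearson's r = 0.988 and Spearman's rho = 0.976 on the log2 scale, and r = 0.969 without the 2 groups farthest from the median. This correlation is given as a description, and the groups share strains, cocktails and, for the tail-tip 4F cells, a line. The quotient of the Col4a1 value over the Col4a2 value was 0.815 to 1.328 in the 6 fibroblast libraries, with a median of 1.06, and 2.246 to 4.773 in the 20 miNSC libraries, with a median of 3.336. The NSC libraries had 2.688 and 4.0. The fibroblast and miNSC ranges of the quotient did not overlap, so the Col4a2 values were lower relative to Col4a1 in miNSC. As scaling of the values by length is not given, the quotient is not read as a ratio of chains. In the scatter of the pair this appears as miNSC points below the line of the fibroblast points.

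**Figure D2:**
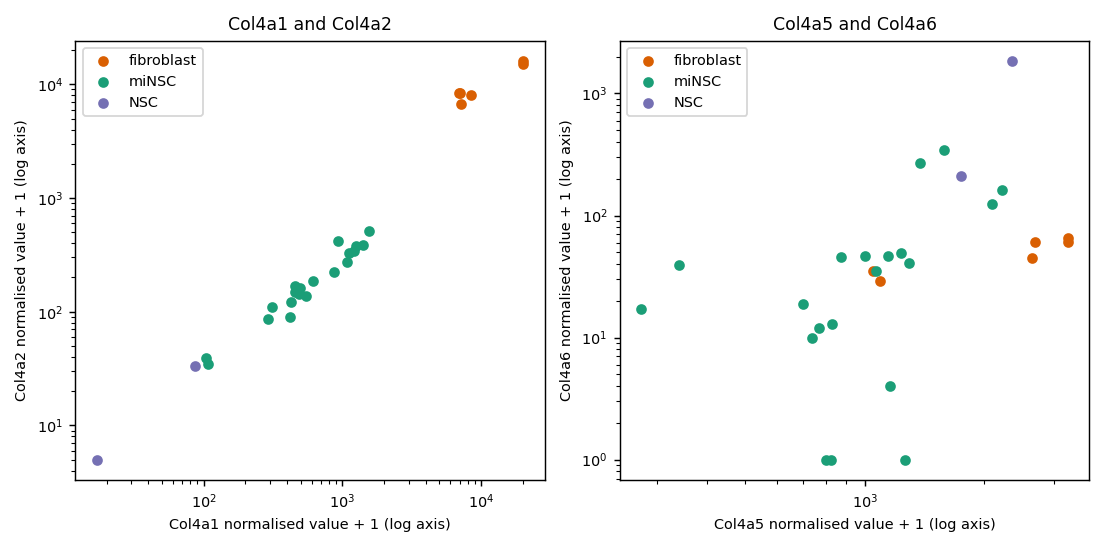
Normalised values plus 1 of Col4a1 against Col4a2 (left) and Col4a5 against Col4a6 (right) on log axes, with 1 point per library coloured by kind of cell. On the left both genes rise together over the 28 libraries, with fibroblasts at the top and a Col4a1 to Col4a2 quotient of 0.815 to 1.328 there against 2.246 to 4.773 in miNSC; on the right miNSC spread from 0 to 340 for Col4a6 at Col4a5 values of 273 to 2214.

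Col4a5 and Col4a6 lie head to head on the X chromosome, 1308 bases apart, and encode chains of basement membranes of kidney, skin and smooth muscle. Col4a5 had 3253 in both 1.0-year tail-tip libraries, 2682 and 2640 in the 2.5-year ones, 1048 and 1094 in skin and 273 through 1032 to 2214 in miNSC. The ranges overlapped at a difference of -1.12 ± 0.06 (adjusted p = 2.75e-11), and with each group entered as its mean Col4a5 gave -1.12 (adjusted p = 0.0644). Col4a6 had 28 to 64 in fibroblasts and 0 through 36 to 340 in miNSC, and the NSC libraries had 209 at passage 2 and 1855 at passage 5. Its miNSC mean of 63.0 exceeded the fibroblast mean of 48.3, while the log2 difference was -1.07 ± 0.34 (adjusted p = 0.00988), -0.46 (adjusted p = 0.15) with 10 added and -1.03 (adjusted p = 0.576) with group means. The Col4a6 values therefore differed among lines rather than in 1 direction. The correlation of Col4a5 with Col4a6 over the 10 miNSC group means was r = 0.358 (rho = 0.564), weaker than for the Col4a1 pair.

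Col4a3 and Col4a4, which pair with Col4a5 in the kidney glomerulus, were low in every library. Col4a3 spanned 26 to 64 in fibroblasts and 0 to 60 in miNSC, with a difference of -0.49 ± 0.44 (adjusted p = 0.328). Col4a4 had 7 and 10 in 1.0-year tail-tip, 3 and 8 in 2.5-year tail-tip and 18 and 23 in skin fibroblasts, and 10 through 23 to 38 in miNSC. The tail-tip libraries did not exceed the lowest miNSC library, the skin libraries lay within the miNSC range, and the difference of Col4a4 was 1.10 ± 0.15 (adjusted p = 5.14e-06).

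All 5 tested type VI genes were lower in miNSC. Col6a1 and Col6a2, neighbours on chromosome 10, and Col6a3 form the common type VI trimer. Col6a1 had 92914 in both skin libraries, 20143 in both 1.0-year and 17984 in both 2.5-year tail-tip libraries, and 1 through 10 to 256 in miNSC, a difference of -11.02 ± 0.45 (adjusted p = 6.16e-13). Col6a2 had 42158 in skin, 10890 to 12122 in tail-tip cells and 0 through 2.5 to 30 in miNSC (-12.21 ± 0.30, adjusted p = 8.28e-16). Col6a3 had 15156 and 12122 in skin, 7798 to 8216 in tail-tip cells and 1 through 5.5 to 45 in miNSC (-10.57 ± 0.26, adjusted p = 5.68e-16). The residual signal came from few lines. Col6a1 was at 252 and 256 in Sox2-GFP embryonic KF cells and 112 and 110 in ICR KF cells, and at most 40 in every other miNSC library. Over the miNSC group means Col6a1 and Col6a2 had r = 0.818, and r = 0.482 without the 2 groups farthest from the median, so that relation rests on those groups.

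Col6a5 and Col6a6 encode alternative type VI chains and lie 27917 bases apart on chromosome 9, next to Col6a4. Col6a5 had 8894 and 8657 in skin fibroblasts, 38 and 18 in 2.5-year and 6 and 10 in 1.0-year tail-tip fibroblasts, and was at 0 in 17 of 20 miNSC libraries. Col6a6 had 1278 and 1270 in skin, at most 5 in tail-tip cells and was at 0 in 18 miNSC libraries. Both were lower in miNSC, but the size came from the skin cells: without them the differences were -3.37 (adjusted p = 0.000491) in place of -6.42 for Col6a5, and -1.81 (adjusted p = 2.91e-06) in place of -4.60 for Col6a6. Col6a4, not tested, had 32 and 28 in skin and 0 to 16 in every other library.

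The anchoring fibril gene Col7a1, which ties epidermal basement membrane to dermis, had 457 and 486, 184 and 115, and 288 and 292 in 1.0-year tail-tip, 2.5-year tail-tip and skin cells, and 4 through 8 to 16 in miNSC (-4.90 ± 0.17, adjusted p = 1.02e-13). Of the short-chain network genes, Col8a1, a chain of vessel walls and cornea, had 16122 in each 1.0-year tail-tip library, then 5846 and 4355, and 3666 and 3708 in these groups. It was at 0 in 16 of 20 miNSC libraries, and the 4 others had 38 to 74. Col10a1, best known from hypertrophic cartilage, had 291 and 272, 144 and 113, and 46 and 56 in fibroblasts and at most 8 in miNSC. No miNSC library reached a fibroblast value for any of these 3 genes. Col8a2, not tested, had 4 to 28 in fibroblasts and at most 1 in miNSC.

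The 7 tested FACIT genes split, with 4 higher and 3 lower in miNSC. All 3 chains of type IX collagen, a trimer bound to cartilage and vitreous fibrils, were higher. Col9a1 was at 0 in 5 fibroblast libraries and at 1 in the other, and at 13 through 25.5 to 38 in miNSC (4.51 ± 0.15, adjusted p = 3.22e-14). Col9a3 had 1 to 3 in fibroblasts and 22 through 65.5 to 658 in miNSC (5.09 ± 0.18, adjusted p = 1.09e-13). Col9a2 had 0 to 2 in fibroblasts and 1 through 14 to 71 in miNSC (3.27 ± 0.34, adjusted p = 1.51e-07), the lowest miNSC values falling within the fibroblast range. The NSC libraries had 14 and 8 for Col9a1, 48 and 7 for Col9a2 and 68 and 26 for Col9a3, all above every fibroblast library. Across the miNSC groups the 3 chains did not run together. Group means gave r of -0.269, -0.406 and 0.208 for the pairs Col9a1 with Col9a2, Col9a1 with Col9a3 and Col9a2 with Col9a3. Of the 4 chondrocyte markers measured, Comp was at 0 in every miNSC library, and the 4 summed to 684 to 3400 in miNSC and 630 to 1619 in fibroblasts, a sum that includes Sox9. Their part in the type IX values was not tested.

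Col20a1, the remaining FACIT gene that was higher, had 3 to 5 in fibroblasts and 1 through 12.5 to 55 in miNSC, a difference of 1.30 ± 0.25 (adjusted p = 0.000167) that became 1.35 (adjusted p = 0.0954) for Col20a1 with group means. The lower ones were Col12a1, Col14a1 and Col16a1. Col12a1, a fibril-binding collagen of tendon and dermis, had 42158 in both 1.0-year tail-tip libraries, 32713 and 28060 in 2.5-year tail-tip and 11648 and 9706 in skin cells, and 62 through 238.5 to 880 in miNSC (-6.39 ± 0.12, adjusted p = 2.41e-17). Col14a1, a related chain, had 1048 to 1366 in fibroblasts and at most 10 in miNSC, which placed the groups far apart (-8.14 ± 0.29, adjusted p = 8.38e-14). Col16a1 had 1620 to 4930 in fibroblasts and 103 through 645 to 1782 in miNSC, so that 1 miNSC library, of the tail-tip BKF line, reached into the range of the skin cells (-2.31 ± 0.07, adjusted p = 4.88e-15).

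Both multiplexins were lower in miNSC. Col18a1, whose C-terminal fragment is endostatin, had 743 and 730, 394 and 362, and 138 and 112 in 1.0-year tail-tip, 2.5-year tail-tip and skin cells, and 5 through 48 to 462 in miNSC, with overlap (-2.83 ± 0.33, adjusted p = 7.19e-07). Col15a1 had 202 and 197 in skin, 18 to 44 in tail-tip cells and 0 to 10 in miNSC (-4.62 ± 0.21, adjusted p = 3.24e-12). The 3 genes left were higher. The transmembrane chain Col25a1, expressed by neurons, had 0 to 20 in fibroblasts and 5 through 13.5 to 40 in miNSC (2.25 ± 0.54, adjusted p = 0.00118). Without the skin fibroblasts, which were at 0, the difference of Col25a1 was 1.33 (adjusted p = 0.0691). Col28a1, known from peripheral nerve, had 203 and 207, 96 and 96, and 134 and 132 in fibroblasts and 98 through 362.5 to 1166 in miNSC (1.56 ± 0.11, adjusted p = 1.79e-09). Only the ICR BKF line, at 112 and 98, stayed within the fibroblast range. Col26a1 had 0 or 1 in fibroblasts, and in miNSC it was above 8 only in the tail-tip 4F line, at 268 and 308 at passage 8 and 138 and 179 at passage 18. Its difference of 1.98 ± 0.50 (adjusted p = 0.00174) was lost with group means (1.98, adjusted p = 0.366 for Col26a1).

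**Figure D3:**
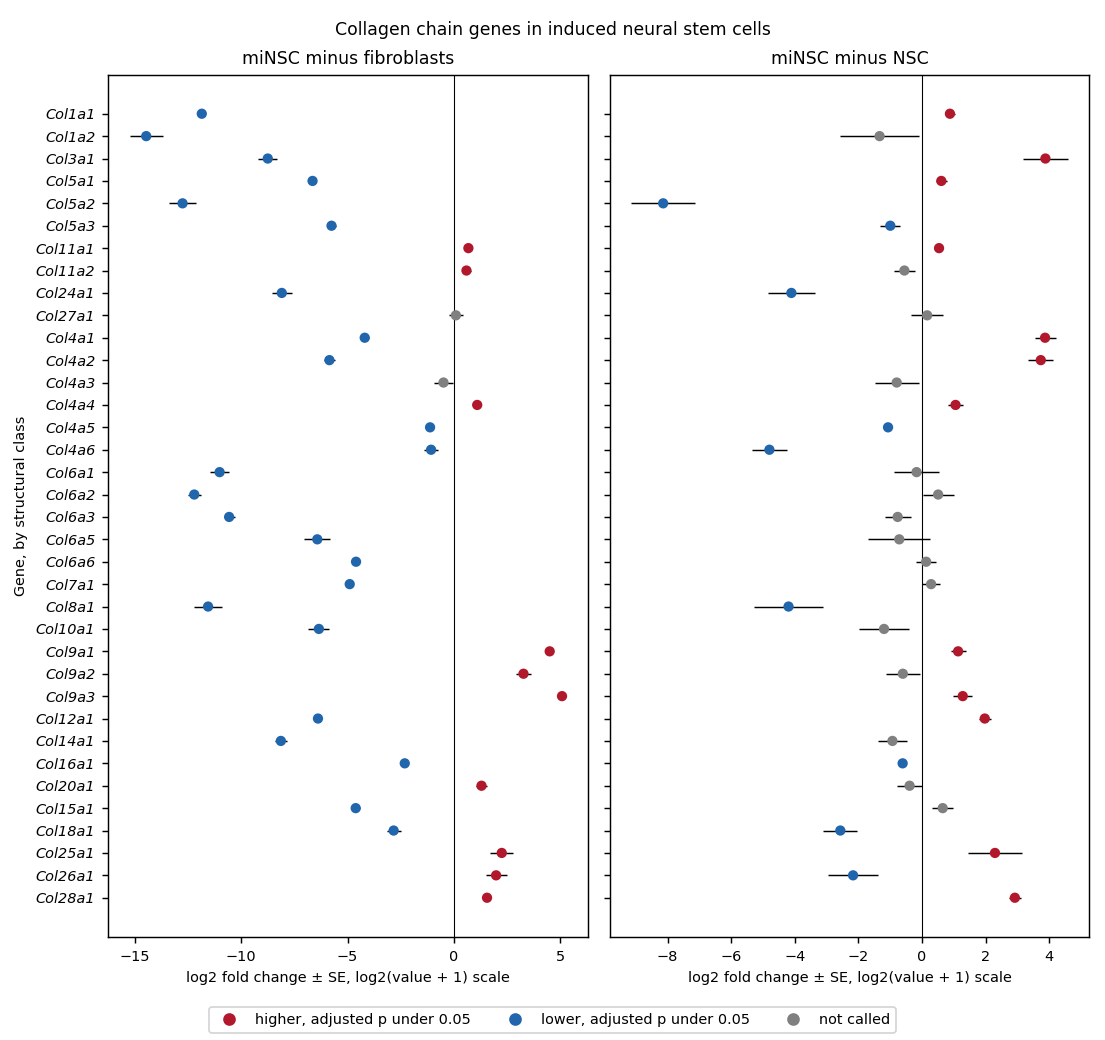
Log2 differences with SE (bars) of the 36 tested collagen chain genes on the log2(value + 1) scale, miNSC minus fibroblasts on the left and miNSC minus NSC on the right, genes in rows by structural class. Most points on the left lie far below 0 (median -4.61) with the type IX chains at 3.27 to 5.09, and on the right points fall on both sides (median -0.28).

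The tail-tip lines could be set beside their own starting population at 1.0 year. In that comparison 23 collagen genes were lower, 7 higher and 6 did not pass, with a median of -3.44, and 66% of all tested genes were called (36.7% higher, 29.4% lower). Both comparisons share fibroblast and miNSC libraries. The 7 higher genes were Col4a4, Col9a1, Col9a2, Col9a3, Col20a1, Col26a1 and Col28a1. Col26a1 was listed at 0 in both starting libraries. Col4a4 was 1.56 ± 0.26 higher (adjusted p = 5.13e-05), with no overlap between its 7 and 10 in fibroblasts and 18 to 38 in the lines.

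The NSC lacked most fibroblast collagens as well: 22 of 36 genes were lower than in fibroblasts, 7 higher and 7 did not pass, with a median of -4.68, where 65.9% of all tested genes were called (34.9% higher, 31.1% lower). Against miNSC, 12 collagen genes were higher in miNSC, 9 lower and 15 did not pass, with a median of -0.28, beside 40.6% of all genes called (20.9% higher, 19.7% lower). With each miNSC group mean as 1 sample, 4 calls remained: Col4a1, Col4a2 and Col28a1 higher, and Col24a1 lower, in miNSC. The NSC libraries differed in passage and stood apart in several genes, so the values are given for each. They also had Xist at 92914 and 42158 and Ddx3y at 0, whereas miNSC had Xist at most 253 and Ddx3y at 808 or more. Sex-linked expression, age and cell source cannot be told apart here.

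Col4a1 had 86 at passage 2 and 16 at passage 5 in NSC, below the 103 to 1548 of every miNSC library (3.87 ± 0.33, adjusted p = 1.55e-07). Col4a2 had 32 and 4 against 34 to 516 (3.73 ± 0.40, adjusted p = 1.91e-06). Both basement membrane chains were thus intermediate in miNSC, below fibroblasts and above NSC. Leaving out 1 NSC library moved the difference between 2.69 and 5.05 for Col4a1 and between 2.37 and 5.09 for Col4a2. Col28a1 had 60 and 47 in NSC and 98 to 1166 in miNSC (2.92 ± 0.18, adjusted p = 4.24e-09). Col24a1 had 20 and 23 in NSC, which the miNSC libraries, with at most 14, did not reach (-4.11 ± 0.73, adjusted p = 0.000321).

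Several other genes were called lower or higher than in NSC but turned on few libraries. Col5a2 had 2024 and 1450 in NSC and was lower in miNSC by a log2 difference of -8.14 ± 1.00 (adjusted p = 8.75e-06), or -7.77 (adjusted p = 0.137) with group means of Col5a2, the tail-tip 4F line lying well above the rest. Col4a6 was also lower (-4.80 ± 0.55, adjusted p = 4.32e-06), or -4.74 (adjusted p = 0.167) with group means. Its difference was -6.37 without the passage 2 and -3.23 without the passage 5 NSC library. Col3a1 had 0 and 23 in NSC and was 3.88 ± 0.70 higher in miNSC (adjusted p = 0.000353), or 3.93 (adjusted p = 0.137) with group means of Col3a1, and it ranged from 1.59 to 6.17 with 1 NSC library. Col18a1 had 86 and 852, and Col26a1 132 and 2, at passages 2 and 5. Without the passage 2 library the sign for Col26a1 turned, from -2.17 ± 0.79 (adjusted p = 0.0391) to 0.57 (adjusted p = 0.405), and without the passage 5 library that for Col5a3 went from -0.998 ± 0.31 (adjusted p = 0.0182) to 0.01 (adjusted p = 0.972).

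Among fibroblasts, age of the tail-tip donors was compared at 2.5 against 1.0 years. 4 collagen genes were lower at 2.5 years, none was higher (1 higher and 9 lower at an unadjusted limma p under 0.05) and 32 did not pass, beside 11% of all tested genes (5.63% higher, 5.41% lower), and the collagen median was -0.43. Col11a1 went from 1278 and 1304 to 824 and 802 (-0.67 ± 0.12, adjusted p = 0.00175) and Col16a1 from 4930 and 4840 to 3068 and 2745 (-0.75 ± 0.14, adjusted p = 0.00286), both called in each alternative run. Col7a1 went from 457 and 486 to 184 and 115 (-1.69 ± 0.38, adjusted p = 0.00868). Without the second 2.5-year library Col7a1 gave -1.35 (adjusted p = 0.107), and without the second 1.0-year library -1.65 (adjusted p = 0.0587). Col28a1 went from 203 and 207 to 96 and 96 (-1.09 ± 0.25, adjusted p = 0.00978), and its adjusted p was 0.0539 to 0.0603 without the first or second 1.0-year or the second 2.5-year library. Other genes differed between the ages without overlap and did not pass. Col8a1 went from 16122 in both libraries to 5846 and 4355. Col4a1 went from 20138 in both to 8418 and 7153, and Col4a2 from 15161 and 16127 to 7994 and 6702. Col5a3, Col6a5 and Col6a6 rose without overlap, Col5a3 from 3048 and 3111 to 3858 and 3504. Their SE is pooled over all groups, so these results do not show equal levels. The main fibrillar genes could show little here, since Col1a1, Col1a2, Col3a1 and Col5a2 sat on the same steps at both ages. The 1.0-year libraries had Ddx3y at 3953 and 4040 and no Xist, and the 2.5-year libraries the reverse, with Xist at 21805, so age and sex-linked expression cannot be told apart. Keratinocyte markers, of which 3 of 6 were measured, summed to 667 to 676 at 1.0 year and 116 to 132 at 2.5 years. Most of the higher sum was Dsp, which reached 572, while Krt10 and Trp63 were at most 59 and 63 in any fibroblast library. Macrophage markers summed to 305 to 306 and 1217 to 1238. Their part in these differences was not tested.

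Skin against tail-tip fibroblasts at 2.5 years gave 4 collagen genes higher in skin, 9 lower and 23 not passing, beside 26.6% of all tested genes (12% higher, 14.5% lower). Col6a5, at 8894 and 8657 in skin and 38 and 18 in tail-tip cells, was 8.33 ± 1.32 higher on the log2 scale (adjusted p = 0.000166), and Col6a6 7.73 ± 0.43 higher (adjusted p = 9.72e-10). Col15a1 was 3.33 ± 0.46 higher (adjusted p = 4.04e-05) and Col4a4 1.83 ± 0.33 (adjusted p = 0.000494). The lower genes included Col5a1, at 10338 in both skin libraries and 92914 and 42158 in tail-tip cells (-2.60 ± 0.24, adjusted p = 5.19e-07), Col12a1 (-1.51 ± 0.26, adjusted p = 0.0004), Col4a5 (-1.31 ± 0.13, adjusted p = 1.05e-06) and Col11a1 (-1.08 ± 0.12, adjusted p = 2.79e-06). With only the 2 groups in the fit, the adjusted p of Col4a4 was 0.105 and that of Col5a1 0.0521. Among the genes called, skin cells were thus higher in 2 alternative type VI chains and lower in Col5a1, Col11a1 and Col12a1. The 3 common type VI chains did not pass, but their skin libraries also lay above the tail-tip ones without overlap. In skin Col6a1 had 92914 in both libraries against 17984 in both, and Col6a2 42158 in both against 12122 and 11648. Col6a3 had 15156 and 12122 against 7992 and 8216. Their SE is pooled over all groups, so these results do not show equal levels. Macrophage marker sums were 378 to 393 in skin against 1217 to 1238, and their part was not tested.

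**Figure D4:**
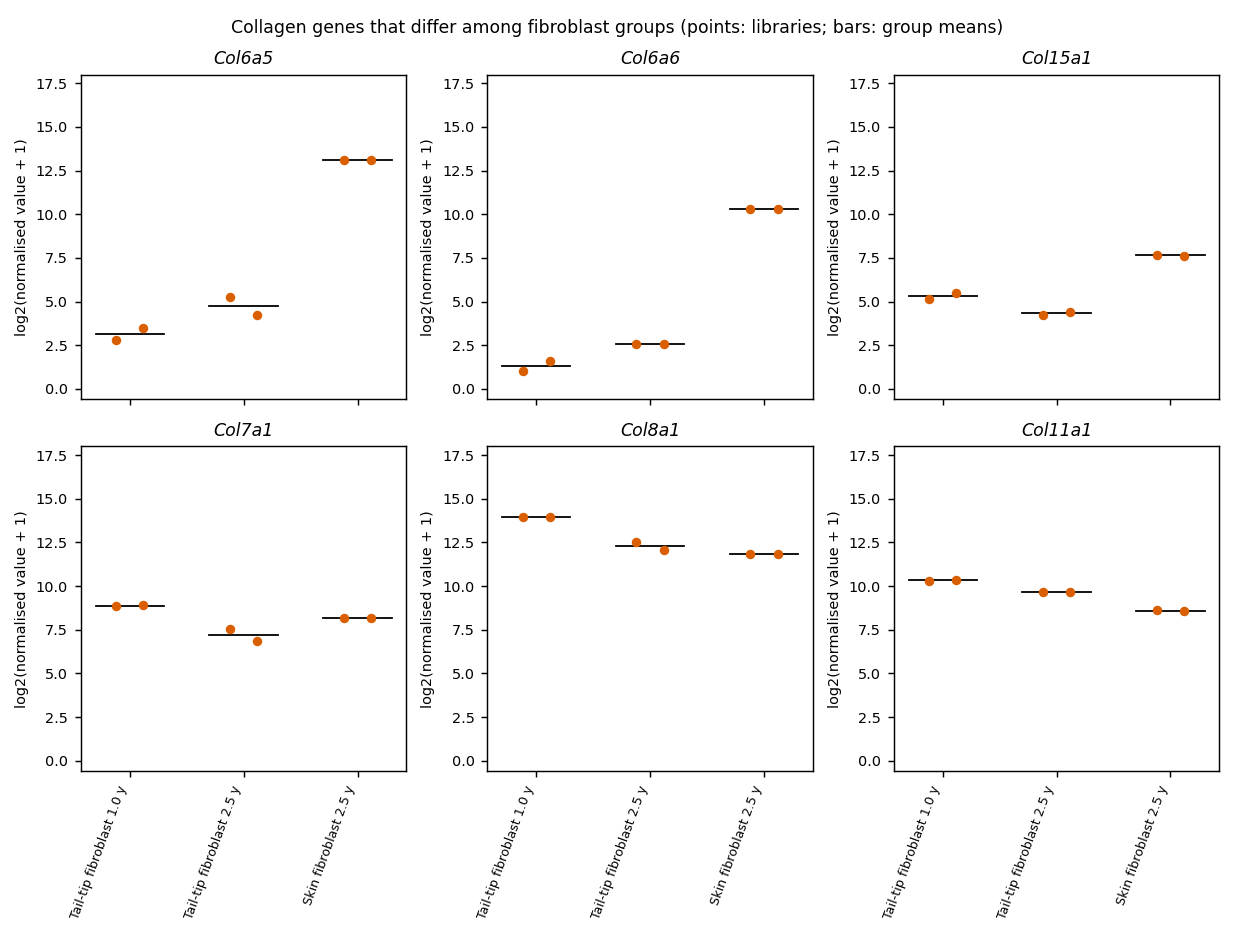
Log2(normalised value + 1) of 6 collagen chain genes in the 3 fibroblast groups, with 1 point per library and bars at group means. Col6a5 and Col6a6 stand highest in skin at 8657 to 8894 and 1270 to 1278, and Col7a1, Col8a1 and Col11a1 stand highest in 1.0-year tail-tip cells.

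Lines made with and without B were compared within the ICR and within the Sox2-GFP embryonic cells. In ICR embryonic cells, BKF against KF gave 11 collagen genes lower, 1 higher and 24 not passing, with a median of -0.80, beside 13.1% of all tested genes (6.69% higher, 6.42% lower). Col3a1 had 64 and 21 in BKF and 1346 and 1352 in KF (-5.16 ± 0.94, adjusted p = 0.00118), the KF line being the highest of all miNSC. Col4a6 had 12 and 11 against 340 and 270 (-4.61 ± 0.74, adjusted p = 0.000392). Col6a3 had 1 and 1 against 45 and 40 (-4.44 ± 0.55, adjusted p = 3.13e-05), and Col6a2 0 and 2 against 28 and 30 (-4.11 ± 0.65, adjusted p = 0.000353). Col1a1 had 6 and 4 against 20 and 26 (-2.01 ± 0.20, adjusted p = 3.68e-06), and Col18a1 10 and 5 against 154 and 107 (-3.99 ± 0.72, adjusted p = 0.00102). Also lower in BKF were Col4a5, Col5a1, Col11a1, Col14a1 and Col28a1, and Col16a1 alone was higher, at 284 and 314 against 103 and 103 (1.53 ± 0.14, adjusted p = 1.37e-06). With only these 2 groups in the fit the adjusted p became 0.0532 for Col3a1, 0.0537 for Col1a1 and 0.0765 for Col6a2. That of Col14a1, 0.0399, became 0.39 with only these groups, 0.562 without the first BKF library, 0.177 without the first and 0.11 without the second KF library. Fibroblast markers summed to 1124 to 1250 in BKF and 1940 to 1996 in KF, and the 9 genes went both ways. Dcn was listed at 0 in BKF, beside a mean of 315.5 in KF, and Fbln1 was listed at 0 in KF, beside a mean of 611 in BKF. In all, 4 were lower in BKF, 2 were higher (Fbln1 and Pdgfra) and 3 did not pass. Their part in these differences was not tested.

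In Sox2-GFP embryonic cells, BKF against KF gave 6 collagen genes higher, 10 lower and 20 not passing, beside 37.7% of all tested genes (19.2% higher, 18.5% lower). The 6 higher in BKF included 2 type IV and 2 type V genes: Col4a1 had 420 and 456 against 103 and 106 (2.06 ± 0.44, adjusted p = 0.00167), Col5a1 514 and 540 against 172 and 151 (1.70 ± 0.24, adjusted p = 4.7e-05) and Col5a3 64 and 65 against 7 and 6 (3.13 ± 0.42, adjusted p = 2.79e-05). Col4a2 had 88 and 147 against 38 and 34 (1.64 ± 0.54, adjusted p = 0.0242), and Col4a2 gave an adjusted p of 0.173 without the second BKF library, 0.0735 without the first and 0.105 without the second KF library. Lower in BKF were Col6a1, at 1 and 2 against 252 and 256 (-6.70 ± 0.96, adjusted p = 5.3e-05), Col27a1, at 80 and 96 against 977 and 1093 (-3.54 ± 0.69, adjusted p = 0.000724), and Col4a6, at 18 and 9 against 124 and 160 (-3.36 ± 0.74, adjusted p = 0.00197). The KMF line, compared with the same KF libraries, gave 6 higher, 8 lower and 22 not passing, beside 39.1% of all tested genes (19.9% higher, 19.2% lower). Its values for these genes were 548 and 485 for Col4a1, 720 and 696 for Col5a1, 74 and 90 for Col5a3, 7 and 6 for Col6a1, 193 and 162 for Col27a1 and 3 and 0 for Col4a6. Each lay on the same side of the KF libraries as in BKF, which are shared. Col28a1 was 1138 and 1166 in KMF, the highest of all libraries, and 558 and 580 in KF (1.02 ± 0.25, adjusted p = 0.00371).

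The test of the difference itself, the change with B in ICR minus that in Sox2-GFP cells, called 15 collagen genes, 4 positive and 11 negative, beside 32.1% of all tested genes (15.8% positive, 16.4% negative). Col5a1 fell with B in ICR, from 786 and 700 to 248 and 190, and rose in Sox2-GFP cells, a difference of -3.47 ± 0.34 (adjusted p = 1.65e-06). Col5a3, at 108 and 82 without and 38 and 44 with B in ICR cells, gave -4.31 ± 0.60 (adjusted p = 4.61e-05). Col16a1 went the other way in both strains, at 2.59 ± 0.20 (adjusted p = 1.14e-07). Each arm may come from 1 colony, so strain, B and line cannot be told apart. Over both cocktails, ICR lines were higher than Sox2-GFP lines in 8 genes and lower in 6, with 22 not passing, beside 38.4% of all tested genes (19.3% higher, 19.1% lower). The lower ones included Col27a1 (-3.36 ± 0.49, adjusted p = 5.67e-05), Col9a3 (-2.91 ± 0.28, adjusted p = 8.35e-07) and Col16a1 (-2.26 ± 0.10, adjusted p = 7.14e-11), each with no overlap between the strains.

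**Figure D5:**
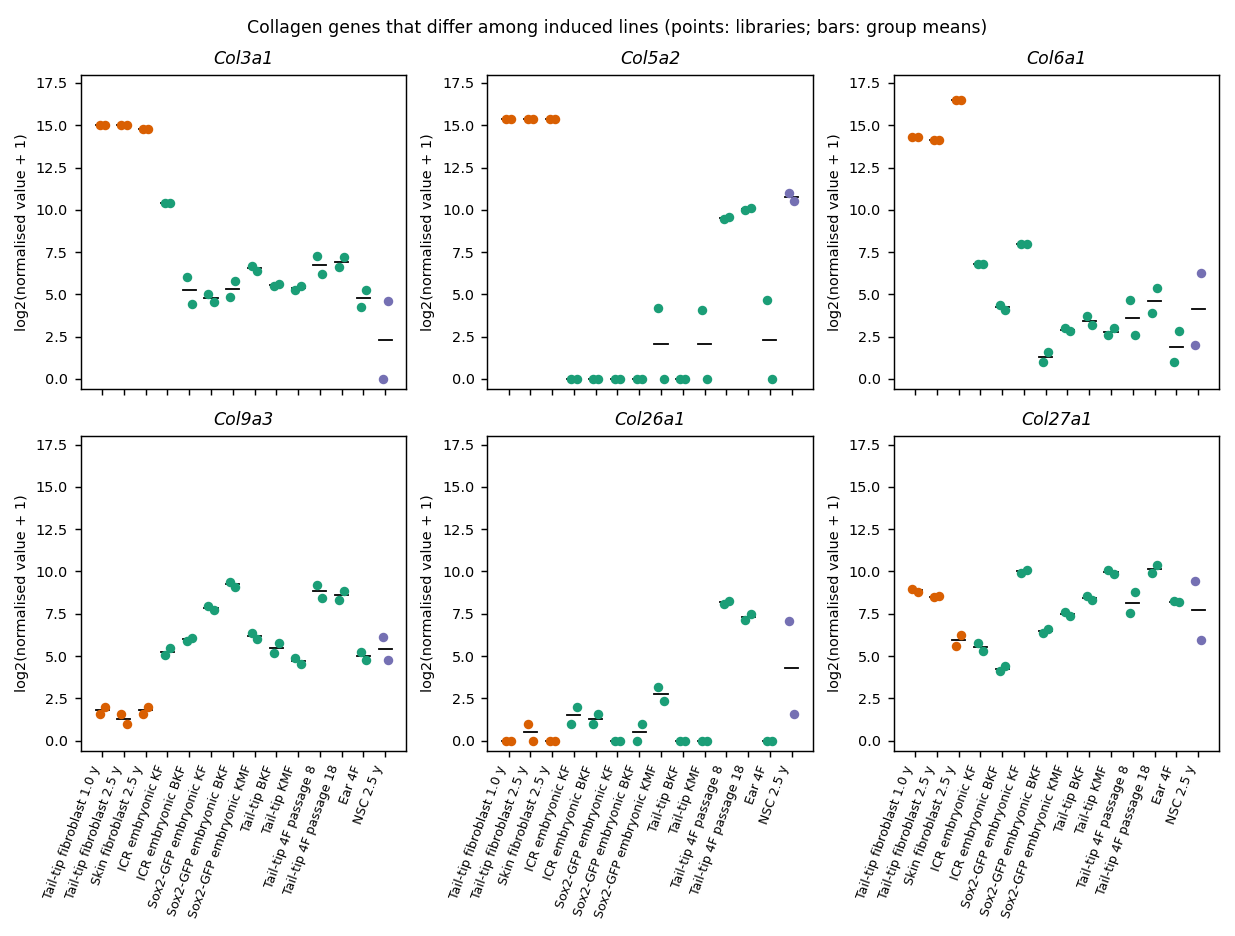
Log2(normalised value + 1) of 6 collagen chain genes in all 14 groups, with 1 point per library, bars at group means, fibroblasts in orange, miNSC in green and NSC in purple. Col3a1 is raised in the ICR KF line (1346 and 1352), Col6a1 in the Sox2-GFP embryonic KF line (252 and 256), and Col5a2 and Col26a1 in the tail-tip 4F cells.

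Within the tail-tip lines, KMF was compared with BKF: 2 collagen genes were lower in KMF, none was higher (3 higher and 4 lower at an unadjusted limma p under 0.05) and 34 did not pass, beside 13% of all tested genes (6.22% higher, 6.75% lower). Col16a1 had 883 and 676 against 1418 and 1782 (-1.04 ± 0.14, adjusted p = 0.000151), and 0.145 was its adjusted p with only these groups in the fit. Col11a1 had 1526 and 1304 against 1716 and 1951 (-0.38 ± 0.12, adjusted p = 0.0451). The adjusted p of Col11a1 was 0.25 with only these groups, 0.346 without the second BKF library, and 0.0515 and 0.339 without the first and second KMF library. Other genes differed without overlap and did not pass. Col4a1 had 1412 and 1212 in KMF against 610 and 490 (1.26 ± 0.44, adjusted p = 0.0778). Col27a1 had 1081 and 938 against 374 and 316 (1.55 ± 0.69, adjusted p = 0.167). Their SE is pooled over all 14 groups, among them NSC at passages 2 and 5. Col4a1 was at 86 and 16 and Col27a1 at 688 and 62 in those NSC libraries. The part of that passage difference in these 2 results was not tested, so they do not show equal levels.

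The 4F line at passage 8 stood apart from BKF, with 9 collagen genes higher, 4 lower and 23 not passing, beside 26.1% of all tested genes (13.1% higher, 12.9% lower). Col5a2 (706 and 768), Col26a1 (268 and 308), Col8a1 (74 and 44), Col6a2 (8 and 5) and Col15a1 (6 and 6) were called higher and were listed at 0 in both BKF libraries. Without the first 4F library the adjusted p of Col8a1 was 0.0532. Col9a3 had 594 and 345 against 36 and 53 (3.34 ± 0.39, adjusted p = 1.47e-05) and Col18a1 462 and 197 against 26 and 14 (3.91 ± 0.72, adjusted p = 0.000781), and with only these groups in the fit their adjusted p became 0.0696 for Col9a3 and 0.0893 for Col18a1. Col4a5 was lower at 340 and 273 against 1235 and 1144 (-1.96 ± 0.13, adjusted p = 3.9e-08), the lowest of all libraries.

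From passage 8 to passage 18 of the 4F line, 6 collagen genes were higher, 4 lower and 26 did not pass, beside 35.1% of all tested genes (17.5% higher, 17.6% lower). Col4a5 went from 340 and 273 to 1065 and 1294 (1.94 ± 0.13, adjusted p = 4.55e-08), and Col5a1 from 770 and 564 to 204 and 197 (-1.71 ± 0.24, adjusted p = 6.08e-05). Col20a1 went from 2 and 6 to 22 and 55 (2.97 ± 0.54, adjusted p = 0.000484), with an adjusted p of 0.101 for Col20a1 when only these groups were fitted. The low Col4a5 value was thus seen at passage 8 and not at passage 18, while Col5a2 and Col26a1 were raised at both passages.

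The ear 4F line against the tail-tip 4F line at passage 8 gave 16 collagen genes lower, 3 higher and 17 not passing, with a median of -1.67, beside 27.2% of all tested genes (13.3% higher, 13.8% lower). The passage of the ear line is not given in the sources used here. Col4a6, Col6a2, Col8a1, Col15a1 and Col26a1 were called lower and were listed at 0 in both ear libraries. The adjusted p of Col8a1 was 0.0505 without the first tail-tip library. Col12a1 had 64 and 62 against 439 and 601 (-3.01 ± 0.26, adjusted p = 5.08e-07) and Col9a3 37 and 26 against 594 and 345 (-3.82 ± 0.39, adjusted p = 2.87e-06). Col4a5 was higher, at 821 and 800 against 340 and 273 (1.41 ± 0.13, adjusted p = 9.13e-07).

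Embryonic against tail-tip origin, compared over BKF and KMF lines of the Sox2-GFP strain, gave 6 collagen genes higher, 7 lower and 23 not passing, beside 33% of all tested genes (17.2% higher, 15.8% lower). Col9a3 was higher in embryonic lines, at 658 and 552 in BKF and 80 and 64 in KMF against 36 and 53 and 28 and 22 (2.62 ± 0.28, adjusted p = 2.69e-06). Col5a3 was 1.62 ± 0.30 higher (adjusted p = 0.00054). Col4a6, at 0 to 18 against 45 to 48, was lower (-3.17 ± 0.52, adjusted p = 0.000206), as was Col16a1 (-1.38 ± 0.10, adjusted p = 5.18e-08). Neither gene's libraries overlapped between the origins.

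The machinery around the chains was read from lists chosen for their known roles. Of 20 folding and modification genes, 17 were lower in miNSC than in fibroblasts and 3 higher (P3h2, Plod1 and Colgalt2), with a median log2 difference of -1.84, where 76.5% of all tested genes were called, 42.8% higher and 33.7% lower. Serpinh1, the collagen chaperone HSP47, had a mean of 5358 in miNSC and 25748 in fibroblasts (-2.49 ± 0.04, adjusted p = 1.41e-18), and Plod3, a lysyl hydroxylase, was lower (-1.91 ± 0.04, adjusted p = 9.9e-17). Of 13 measured processing and cross-linking genes 11 were lower and none higher, with a median of -5.65. Loxl1, a lysyl oxidase, was lower (-10.98 ± 0.25, adjusted p = 2.4e-16) and Pcolce, an enhancer of procollagen processing, -5.65 ± 0.14 (adjusted p = 8.8e-16), while Loxl4 was listed at 0 in all miNSC libraries. All 10 fibril-binding partners were lower, with a median of -7.09, among them Bgn (biglycan, -13.95 ± 0.25, adjusted p = 1.26e-17). Against NSC, by contrast, 18 of the 20 folding genes were higher in miNSC, 1 was lower (P4ha3) and 1 did not pass (Mia3), with a median of 1.05, where 20.9% of all tested genes were higher and 19.7% lower. In that comparison Serpinh1 was 0.87 ± 0.06 higher (adjusted p = 1.63e-08), but its libraries overlapped. The ICR BKF line had a Serpinh1 mean of 721.5, below the NSC mean of 2515.5. Of the higher folding genes, only P3h3, P3h4, Plod2 and Colgalt2 had no overlap between miNSC and NSC libraries. The fit with group means was run for the collagen chain genes alone and not for this list.

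The basement membrane partners, receptors and transcription factors are read against the same background, in which 76.5% of all tested genes were called. Of 12 basement membrane partners, 7 were lower, 4 higher and 1 did not pass, with a median of -1.13. Nid1 (nidogen, which links laminin to type IV collagen) was lower (-6.17 ± 0.08, adjusted p = 3.37e-19), and Lama5 (a laminin chain, 4.27 ± 0.08, adjusted p = 9.04e-18) and Agrn (agrin, 4.24 ± 0.13, adjusted p = 1.89e-14) were higher. Of 10 tested collagen receptors 4 were higher, 4 lower and 2 did not pass. Adgrg1, a receptor for type III collagen in the developing brain, had a mean of 9800 in miNSC and 18.3 in fibroblasts (9.13 ± 0.12, adjusted p = 1.94e-19), and Ddr1, a collagen receptor kinase, was 2.14 ± 0.04 higher (adjusted p = 2.45e-17). Itga11, a fibrillar collagen integrin, was listed at 0 in all miNSC libraries. Of 8 tested transcription factors known to act on collagen genes 4 were higher and 4 lower. Sox6 was 5.65 ± 0.08 (adjusted p = 7.68e-19) and Sox9 1.77 ± 0.05 higher (adjusted p = 1.02e-14), and lower were Prrx1 (-5.73 ± 0.10, adjusted p = 6.3e-18) and Twist1 (-2.63 ± 0.06, adjusted p = 1.47e-16). In the ICR lines 7 of the 20 folding genes were lower in BKF than in KF and 13 did not pass (median -0.3), and 3 of 13 processing genes were lower and 10 did not pass (median -0.57), where 13.1% of all tested genes were called. Serpinh1 and Pcolce were among the lower ones, with differences of -2.12 ± 0.08 (adjusted p = 1.95e-11) and -3.49 ± 0.30 (adjusted p = 6.75e-07).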

How the data were processed

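Messenger RNA libraries were made from oligo(dT)-enriched RNA with random hexamers, per the labels' protocols. The authors' deposited table gives 1 normalised score per gene and library, in whole numbers, and how it was normalised is not given in the sources used here. RSEM, Bowtie2 2.0 and mm10 are named without role, per the submitters' processing notes. Depth is unknown. All 17295 identifiers were found in GENCODE M21 (GRCm38), the source of positions and transcript lengths. Scores were changed to log2(value + 1), so folds of low genes are understated, and 16275 genes with a mean of at least 10 were tested with limma 3.58.1 (R 4.3.3), with 1 term per group, a variance trend and Benjamini-Hochberg adjustment at 0.05. Contrasts weigh groups equally, and a difference is the first-named group minus the second. SE and p-values come from the spread within groups, pooled over all groups, so differences between lines do not enter them. The difference between the NSC passages does. The fit was tested on simulated data. Python 3.11.15 read the table and drew the figures. Every collagen chain gene could be named, and of each other list the 4 genes with the smallest adjusted p and each member of a count of 5 or fewer. Members and lists were chosen with earlier results of these data known. Of 45 collagen genes assigned to structural classes, 7 were not analysed here. Alternatives changed the value added, the filter, the libraries fitted, the replicate block and the variance prior.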

Additional observations from a re-analysis of the deposited data

Results flagged for a closer look

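The change with B differed between ICR and Sox2-GFP embryonic lines, tested as an interaction in the limma fit over all genes, for 15 collagen chain genes. The values are log2, the ICR change minus the Sox2-GFP change. Each of the 4 arms has 2 libraries that may come from 1 colony, so strain, factor and line cannot be told apart. Negative differences were -2.01 ± 0.29 for Col1a1 (adjusted p = 6.23e-05), -5.69 ± 1.33 for Col3a1 (0.00364), -3.19 ± 0.63 for Col4a1 (0.001), -3.47 ± 0.34 for Col5a1 (1.65e-06), -4.31 ± 0.60 for Col5a3 (4.61e-05) and -3.53 ± 0.78 for Col6a3 (0.00245). Col4a2 had -2.43 ± 0.76 (0.0219), Col7a1 -1.45 ± 0.53 (0.0474), Col11a1 -0.45 ± 0.17 (0.0491), Col14a1 -2.40 ± 0.87 (0.0457) and Col28a1 -1.05 ± 0.35 (0.0299). Positive differences were 0.69 ± 0.18 for Col4a5 (0.00872), 4.13 ± 1.36 for Col6a1 (0.0295), 2.82 ± 1.03 for Col9a2 (0.0475) and 2.59 ± 0.20 for Col16a1 (1.14e-07). The calls of Col4a2, Col6a1, Col7a1, Col9a2, Col11a1, Col14a1 and Col28a1 were each lost when some single libraries were left out, and 8 to 11 calls were made over those fits. The lowest count, 8, was without the second Sox2-GFP KF library, and 9 were made without the first ICR KF library.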

How the results depend on the processing

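Counts of called collagen chain genes stayed within 1.5 times the reported count under most alternatives. Requiring a mean of at least 100, which left 23 members in the test, gave 22 for miNSC against fibroblasts and 19 for NSC against fibroblasts. Fitting only the groups compared gave 10 for tail-tip age, 0 for tail-tip KMF against BKF (11 at an unadjusted limma p under 0.05), 6 for tail-tip 4F against BKF and 5 for passage 18 against 8. Adding 10 before the logarithm gave 8 for tail-tip age, and taking each miNSC group mean as 1 sample gave 4 for miNSC against NSC. The cause was not tested. Alternatives that left out the skin fibroblasts (32), the ICR KF line (34) or the tail-tip 4F line (21, against NSC) were chosen after seeing the data. The range of counts with 1 library left out was 33 to 35 for miNSC against fibroblasts, 29 to 31 for tail-tip miNSC and for NSC against fibroblasts, and 19 to 23 for miNSC against NSC. It gave 2 to 5 for tail-tip age (2 without the second 1.0-year library), 10 to 11 for skin against tail-tip, 11 to 12 for B in ICR, 11 to 14 for B and 12 to 14 for M in Sox2-GFP lines. It gave 1 to 2 for tail-tip KMF against BKF (1 without the second library of either), 10 to 14 for tail-tip 4F against BKF, 6 to 9 for passage (6 without the second passage 18 library), 13 to 18 for ear against tail-tip, 11 to 14 for origin, 10 to 13 for strain and 8 to 11 for strain by B. A group left with 1 library was assumed to vary like the others.

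With the replicate number as a block the counts were 7 for tail-tip age, 19 for B in ICR and 9 for tail-tip KMF against BKF. Deviations of same-numbered libraries correlated at -0.055 to 0.071 over 78 pairs of groups, with none over 0.1, so the numbers are not taken to pair libraries. The NSC libraries, without replicate numbers, were not in the blocked fit. The block and the absence of NSC therefore cannot be told apart in these counts.

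Over 4501 single-gene results, 4219 kept direction and side of the threshold, 278 fell short of it and 4 turned sign. Those were Col26a1 and Col5a3 in miNSC against NSC, which ranged from -4.904 to 0.567 and from -2.01 to 0.014 when 1 NSC library was left out, and Col11a1 (-0.124) and Col11a2 (-0.240) in miNSC against 1.0-year tail-tip fibroblasts only.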
